A study of Apostichopus japonicus with 9 samples.

Results

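Fresh body wall of Apostichopus japonicus, a sea cucumber, was represented by the 3 control libraries, CON_1, CON_2 and CON_3, of the 9 libraries in the series. They were chosen by label, as the body wall that was not warmed (0 h), and the heated body wall was not compared here. The animals weighed 150 ± 20 g, their viscera and heads had been taken off, and the wall was frozen as pieces. The methods call the libraries biological replicates and give neither strain, age nor sex. Whether each came from 1 animal or from pooled pieces was not given in the sources used here. RNA-seq values were deposited as FPKM, the number of sequenced fragments per kilobase of transcript, scaled to the mapped fragments of the library, for 53665 gene loci. With 1 group of 3 libraries there was nothing to test, so each value is given per library or as a mean ± SD (n = 3), and differences between libraries are descriptions.

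The sea cucumber body wall is mostly dermis, a connective tissue of collagen fibrils in a matrix of proteoglycans, under a thin epidermis, with muscle on its inner side and coelomocytes, the immune cells of the body cavity, spread through it. Echinoderm dermis is known as mutable collagenous tissue, because its stiffness is set under nervous control by proteins that bind the fibrils together or release them. In a bulk extract such as this one, fewer cells of a type and less RNA per cell cannot be told apart.

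Few genes carried much of the summed FPKM, and collagens, ferritin and ribosomal proteins led those with a description. The 10 genes of highest mean FPKM held 15.5% ± 2.61 (SD, n = 3) of the summed FPKM, and the 100 highest held 40.5% ± 6.33. The concentration differed between the libraries. In CON_1, 109 genes made up 50% of the summed FPKM, against 183 genes in CON_2 and 317 in CON_3. The 100 highest genes of each library on its own held 48.6% in CON_1, 41.5% in CON_2 and 35.4% in CON_3. CON_1 was therefore the library most dominated by its top genes, and CON_3 the most even of the 3.

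**Figure D1:**
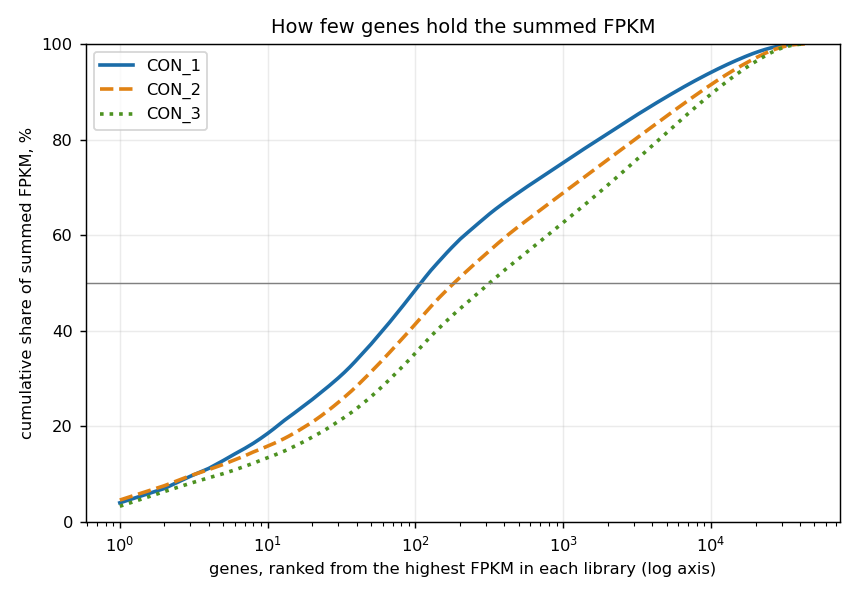
Cumulative share of the summed FPKM (%, vertical axis) against the number of genes, ranked from the highest FPKM within each library (log axis), with 1 line per CON library and a grey line at 50%. The CON_1 line crosses 50% at 109 genes, the CON_2 line at 183 and the CON_3 line at 317.

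The gene of highest mean FPKM, MSTRG.29985 (predicted gene AJAP12778), had 10070, 16682 and 10786 FPKM in CON_1, CON_2 and CON_3. It carried no description and alone held 3.56% of the summed FPKM. MSTRG.18620, a locus that merges the predicted genes AJAP08083 and AJAP08085 and also has no description, followed with 8588, 10828 and 11660 FPKM. What these 2 loci encode was not given in the files.

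Collagens, the triple-helical proteins of the dermal fibrils, came next. Alpha-2 collagen (MSTRG.32978, AJAP02388) had 13561 FPKM in CON_1, 7571 in CON_2 and 6107 in CON_3, and was the gene of highest FPKM in CON_1. A second collagen locus, MSTRG.32976, had 5542, 3884 and 2576 FPKM. It merges 5 predicted genes, so its value cannot be given to 1 of them. Its description names a collagen alpha-1(I) chain, and its words also match alpha-2 collagen and fibrillar collagen. Alpha-1 collagen isoform X4 (MSTRG.39736) had 3537, 4650 and 3007 FPKM, highest in CON_2. MSTRG.39737, the next locus by number and of the same description, had 1053, 1472 and 1132 FPKM, also highest in CON_2.

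Ferritin (MSTRG.43507), the protein shell that stores iron, followed alpha-2 collagen in the order of means, with 5476, 3553 and 4050 FPKM. Of the 20 genes of highest mean, 3 were collagens, 6 were annotated to the KEGG Ribosome pathway, 9 had no description, and 4 of those 9 matched no predicted gene of the reference. The ribosomal genes in this list were the 40S protein S15 and the 60S proteins L27a, L13a, L15 and L5, which are structural parts of the cytosolic ribosome, and MSTRG.33046, whose description says only that it is uncharacterized.

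Most neighbours in the order of the top 20 could not be told apart. In 2 of the 19 pairs of neighbours the lowest library of the upper gene was above the highest library of the lower gene. Those pairs were alpha-2 collagen over ferritin, and alpha-1 collagen isoform X4 over MSTRG.2515, which had 2839, 2925 and 2216 FPKM and no description. The first and second genes changed places in CON_3, and alpha-2 collagen was above both in CON_1. Of the 31 genes that were in the top 20 of any library, 11 were in the top 20 of all 3.

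A single gene of the top 20 was near 0 in a library. MSTRG.5766 (AJAP24017, no description) had 4705 FPKM in CON_1, 1606 in CON_2 and 0.463 in CON_3, and ranked 6, 20 and 31364 in those libraries. As deposited, before any rescaling of the libraries, the steadiest of the 20 was 60S ribosomal protein L27a (MSTRG.5323), with 1819, 1912 and 1826 FPKM (1852 ± 51.6).

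**Figure D2:**
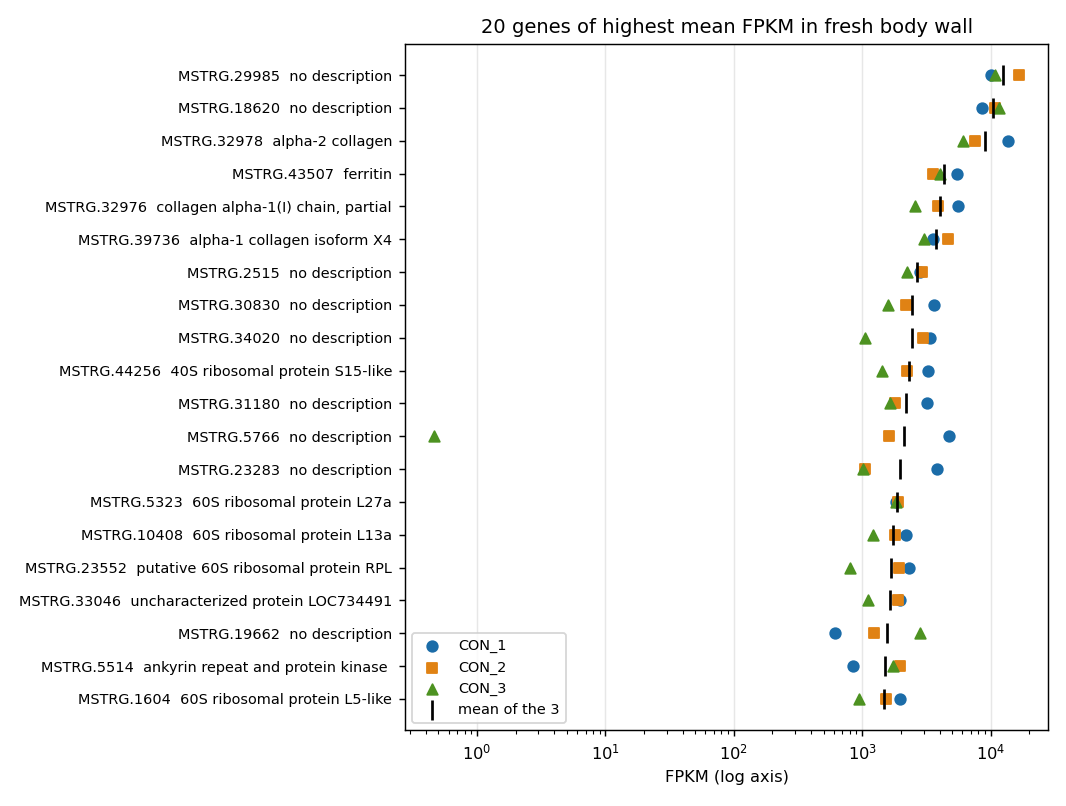
FPKM (log axis) of the 20 genes of highest mean FPKM, from the highest at the top, with 1 point per CON library and a bar at the mean of the 3. Alpha-2 collagen runs between 6107 and 13561 FPKM, 60S ribosomal protein L27a between 1819 and 1912, and MSTRG.5766 stands at 0.463 in CON_3 and over 1000 in the other libraries.

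Detection was uneven below these levels. A total of 12009 loci, 22.4% of the 53665, had an FPKM of at least 1 in all 3 libraries. Another 7690 reached 1 in exactly 2 libraries and 14282 in exactly 1. Of these 14282, 2687 did so in CON_1, 4723 in CON_2 and 6872 in CON_3. At an FPKM of at least 10, 1910 loci passed in all 3 libraries, and at 100 or more 245 did. At the low end, 2774 loci were listed at 0 in all 3. FPKM carries no count of reads, so the depth behind a low value is unknown.

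Annotation favoured the loci that were detected throughout. Among loci with a KEGG pathway, 47.7% (1589 of 3329) reached 1 in all 3 libraries, among those with a GO term 42.4% (2311 of 5446), and among those with a description 24.6% (4668 of 18981). Of the loci with no description, GO term or KEGG pathway, 21.1% (7287 of 34570) did, and these made up 60.7% of the 12009. They held 47.1% of the summed FPKM in CON_1, 47.5% in CON_2 and 49.7% in CON_3. These are loci to which the files give no function.

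By class, the share of loci at an FPKM of 1 or more in all libraries ran from near complete to near none. Of the 93 loci of the ribosomal protein class, 91 passed. The other 2, both described as 28S ribosomal protein S16, had means of 0.481 and 0.0476 FPKM. By that name they belong to the mitochondrial ribosome, and the words used for the classes placed them here. Respiratory chain and ATP synthase genes followed with 55 of 70, translation factors with 73 of 112, iron storage and antioxidant proteins with 53 of 82 and actin and actin-binding proteins with 58 of 92. At the other end stood transposable element derived proteins with 1 of 443, tubulins, dyneins, kinesins and cilia genes with 32 of 333, serine proteases with 4 of 33, and cell adhesion and surface receptors with 167 of 1079.

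The described part of the signal was divided into 28 classes by words in the gene descriptions, which together held 36.3% ± 3.00 of the summed FPKM. Ribosomal proteins held the largest share of these, with 19.5% in CON_1, 17.7% in CON_2 and 13.7% in CON_3. Their members were high throughout: the median member had a mean of 572 FPKM, and 80 of 93 had a mean of 100 or more. Ribosomal protein loci on the KEGG Ribosome pathway did not hold all of that pathway. A further 11 loci on it were described as hypothetical or uncharacterized, and those 11 held 2.64% ± 0.271. The pathway as a whole, with 136 loci, held 19.9% ± 3.32. By GO term, the cytosolic large ribosomal subunit held 13.3%, 12.7% and 10.0%, and the small subunit 8.16%, 6.79% and 5.21%.

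Collagens came second among the named classes, with 7.27% in CON_1, 5.05% in CON_2 and 3.83% in CON_3. The class was steep. The alpha-2 collagen locus MSTRG.32978 alone made up 47.4% of it, 4 of its 35 loci had a mean of 1000 FPKM or more, and 12 had a mean under 1. Below the 4 high loci were a collagen alpha-1(V) chain locus (MSTRG.188) with 325, 296 and 268 FPKM, another locus of alpha-1 collagen isoform X4 (MSTRG.38727) with 179, 152 and 181, and a collagen alpha-5(IV) chain (MSTRG.46116), a type found in basement membranes, with 130, 89.1 and 81.0. The short-chain collagen C4 loci were low, apart from MSTRG.7943 with 29.0, 60.6 and 57.1 FPKM. These loci were singled out after their values were seen.

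The other extracellular matrix proteins held 0.340%, 0.373% and 0.477%, well below the collagen share in each library. Tensilin (MSTRG.24897), the protein known from holothurian dermis to bind collagen fibrils together and stiffen the tissue, led them with 154 FPKM in CON_1, 218 in CON_2 and 359 in CON_3. The order of the libraries was opposite to that of alpha-2 collagen. A fibropellin Ia-like protein (MSTRG.19784), a secreted protein of the apical matrix in sea urchin embryos, had 222, 203 and 175 FPKM. MSTRG.36332, described as an extracellular matrix protein FREM2, had 174, 195 and 220 FPKM.

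Enzymes that cut proteins differed by class in level. Cathepsins and other lysosomal enzymes held 0.519%, 0.481% and 0.372%, with 2 loci described as cathepsin L, a cysteine protease of the lysosome, at the top. MSTRG.29892 had 597, 391 and 443 FPKM and MSTRG.7356 had 376, 621 and 323, so CON_1 was highest at one locus and CON_2 at the other. Legumain (MSTRG.33320), another lysosomal cysteine protease, had 188, 158 and 79.2 FPKM. Matrix metalloproteinases and other metalloproteases, which include the enzymes that cleave fibrillar collagen and other matrix outside cells, held 0.105% ± 0.0246, and no member had a mean of 100 FPKM. Their highest member, matrix metalloproteinase 16 (MSTRG.5484), had 41.9, 37.9 and 60.6 FPKM. Macrophage metalloelastase (MSTRG.34266) had 31.4, 63.9 and 5.52. Serine proteases were lower still, at 0.0206% ± 0.00524, with a thymus-specific serine protease-like locus (MSTRG.29316) at 18.3, 27.3 and 42.8 FPKM.

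Protease inhibitors held 0.234% in CON_1, 0.517% in CON_2 and 0.441% in CON_3, more than metalloproteases and serine proteases together in each library. Cathepsins and other lysosomal enzymes held more than the inhibitors in CON_1, at 0.519%, and less in CON_2 and CON_3, at 0.481% and 0.372%. A locus named after the leukocyte cysteine proteinase inhibitor (MSTRG.34281), of the family that blocks cathepsins, had 291, 1033 and 739 FPKM and made up 46.6% of the class. A second locus of that description (MSTRG.29176) had 242, 398 and 273. Pregnancy zone protein (MSTRG.23773), named after a broad protease trap of the alpha-2-macroglobulin family, had 44.2, 108 and 163. CON_1 was the lowest library for all 3 loci as deposited. After scaling the libraries to a common median ratio, CON_3 was lowest for MSTRG.29176.

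Iron storage and antioxidant proteins held 2.10%, 1.52% and 1.67%, of which ferritin was 70.4%. Melanotransferrin (MSTRG.32738), an iron-binding protein of the transferrin family, had 273, 297 and 401 FPKM. Ovoperoxidase (MSTRG.33942), named after the enzyme that hardens the sea urchin fertilization envelope, had 81.3, 127 and 125.

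Cytoskeletal genes divided into steady and unsteady members by FPKM as deposited. Actin (MSTRG.7223, a locus of 2 predicted genes) had 806, 745 and 805 FPKM, which is 785 ± 34.7. Arpc1 (MSTRG.21850), a subunit of the complex that branches actin filaments, had 539, 571 and 216. Coactosin-like protein (MSTRG.42316), which binds actin filaments, had 100, 369 and 766. Myosins and other contractile proteins held 0.117%, 0.168% and 0.230%. Calponin-3 (MSTRG.40603) had 133, 181 and 175 FPKM, the myosin-2 essential light chain (MSTRG.4731) 78.5, 109 and 124, and myosin-10 (MSTRG.22120), named after a non-muscle myosin heavy chain, 13.7, 76.1 and 163. In this class 19 of the 24 members with a mean of 1 or more were highest in CON_3 and 0 in CON_1, beside 50.7% and 17.3% of all 22781 loci with such a mean.

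Immune genes were present at moderate levels. Lectins, which bind sugars on cell surfaces, held 0.526%, 0.573% and 0.554%. A locus described as lectin (MSTRG.11406) had 352, 598 and 709 FPKM, and a hepatic lectin-like locus (MSTRG.9393) had 257, 461 and 613. A C-type lectin domain family 19 locus (MSTRG.26210) had 362, 413 and 142, lowest in CON_3. The class of complement, scavenger receptors and other innate immunity held 0.251%, 0.325% and 0.429%. Complement component C3 (MSTRG.13921), the central protein of the complement cascade, had 71.0, 134 and 244 FPKM. Allograft inflammatory factor 1 (MSTRG.24343), a calcium-binding protein of macrophages in vertebrates, had 115, 278 and 296. A locus described as deleted in malignant brain tumors 1 protein (MSTRG.39832) had 159, 65.9 and 149, highest in CON_1. Fibrinogen-related proteins held 0.258%, 0.253% and 0.261%, led by a tenascin-like locus (MSTRG.39446) at 366, 340 and 244. An angiopoietin-2-like locus (MSTRG.18920) had 38.1, 90.4 and 117, and a ficolin-1-like locus (MSTRG.31986) had 57.8, 41.0 and 21.6.

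Energy genes were among the steadiest of the named classes. Carbohydrate and energy metabolism held 0.264%, 0.272% and 0.268%, and respiratory chain and ATP synthase genes held 0.828%, 0.852% and 0.877%. ATP synthase subunit beta (MSTRG.7216), the catalytic subunit of the enzyme that makes ATP in mitochondria, had 265, 260 and 271 FPKM. A core histone locus (MSTRG.32353) had 732, 750 and 754 FPKM, while a locus described as H3 histone (MSTRG.7806) had 1.02, 177 and 50.5. Among chaperones, which fold proteins, a peptidyl-prolyl cis-trans isomerase (MSTRG.13275) had 501, 523 and 576 FPKM and heat shock protein 90-alpha (MSTRG.12166) had 106, 131 and 227. Calmodulin (MSTRG.7613), the calcium sensor, had 582, 829 and 1198 FPKM. The transcription factor of highest mean was a nuclear receptor named ROR-beta (MSTRG.22490), at 191, 314 and 279. It was followed by a locus of hypoxia-inducible factor 1-alpha (MSTRG.11189), the regulator of the response to low oxygen, at 95.0, 129 and 118.

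**Figure D3:**
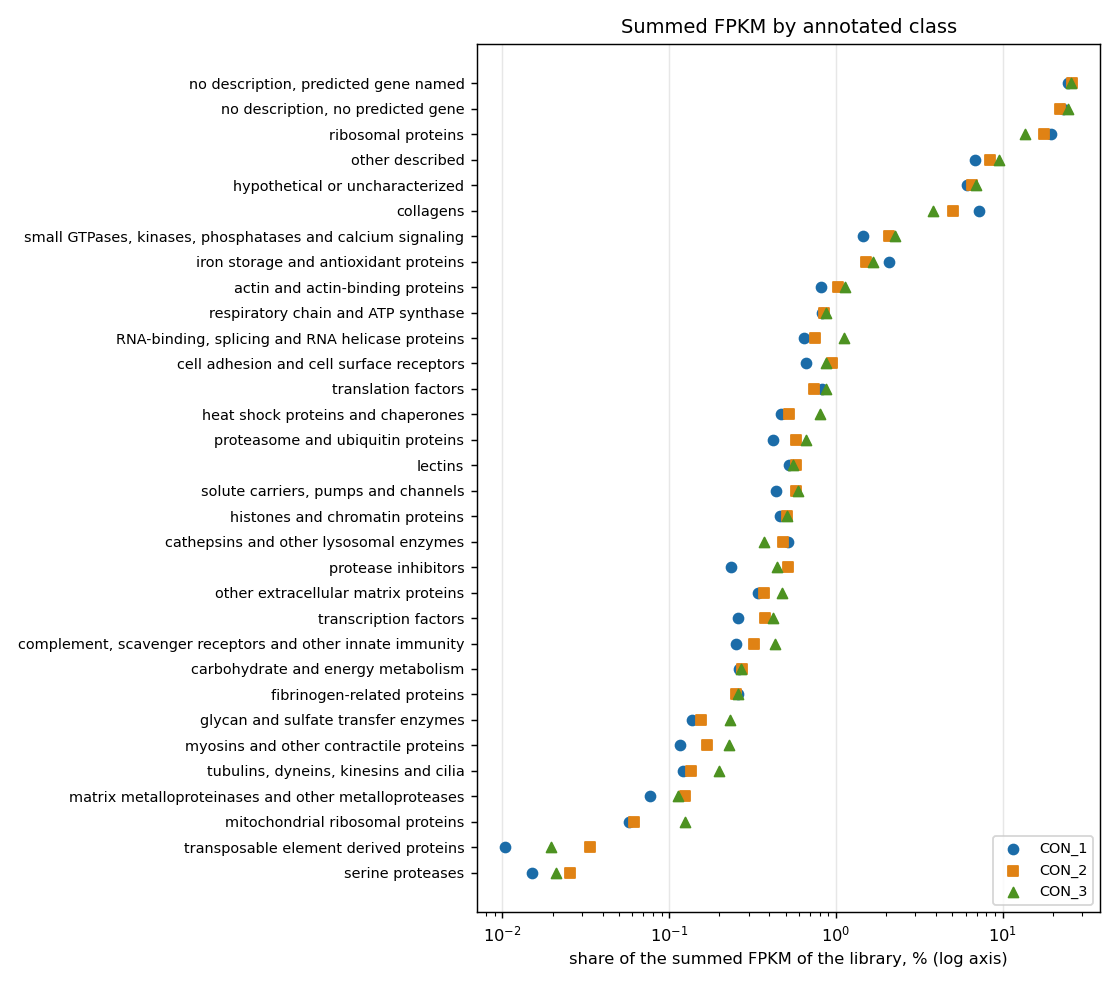
Share of the summed FPKM of each CON library (%, log axis) in the 28 named classes, in described genes outside them, in hypothetical or uncharacterized genes, and in loci with no description, ordered by mean, with 1 point per library. Loci with no description hold over 20% each with or without a predicted gene, ribosomal proteins between 13.7% and 19.5%, and collagens between 3.83% and 7.27%.

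KEGG pathways group the loci differently, and beyond Ribosome their order was not that of the classes. Among the 111 pathways with at least 10 loci of mean FPKM 1, Ribosome was first and RNA transport second with 0.991% ± 0.139. Oxidative phosphorylation followed with 0.768% ± 0.0512, Phagosome with 0.756% ± 0.0139, and Protein processing in endoplasmic reticulum with 0.731% ± 0.0825. Lysosome held 0.624% in CON_1, 0.603% in CON_2 and 0.532% in CON_3. Pathways share loci: the actin locus MSTRG.7223 alone made up 56.4% of Focal adhesion and 29.7% of Phagosome.

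Marker lists for the cell types of the wall were checked against the label. Of all 53665 loci, 22781 had a mean of 1 or more, and the counts below stand beside that. Dermal connective tissue markers had 24513, 18390 and 13688 summed FPKM, with 31 of 60 loci at a mean of 1 or more. Collagen loci, already given as a class, made up most of this sum. Fibrillin loci ran the other way, with 66.2, 140 and 206 summed FPKM, and fibronectin and SPARC loci did not fall in that order. Muscle markers had 210, 309 and 307 summed FPKM with 9 of 37 loci at 1 or more. Calponin and tropomyosin carried most of it, the single troponin locus (MSTRG.18626) had 2.44, 3.89 and 5.49 FPKM, and the single paramyosin locus was at 0 in CON_1 and CON_2. Coelomocyte markers had 360, 619 and 885 summed FPKM with 20 of 36 loci at 1 or more. The lysozyme loci in the list fell, with 59.6, 43.2 and 15.3 summed FPKM. Its complement component, allograft inflammatory factor, scavenger receptor and peroxidasin loci were each highest in CON_3 as sums. Neuron markers had 79.8, 143 and 165 with 18 of 102, led by an ELAV-like protein (MSTRG.41734) at 36.7, 53.2 and 51.5 FPKM. This list also took in general membrane traffic proteins, such as syntaxin-12 (MSTRG.16931) at 6.67, 9.54 and 12.2 FPKM, syntaxin-11 (MSTRG.40691) and synaptosomal-associated protein 29 (MSTRG.20043), so its sum is not of neurons alone. Ciliated cell markers had 14.2, 26.9 and 46.2 with 7 of 85, and none reached 1 in all 3 libraries.

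Markers of organs outside the wall were low but not all absent. Of 61 gut marker loci 23 were at a mean of 1 or more, beside 22781 of all 53665 loci. Gut markers had 153, 268 and 214 summed FPKM. Most of this came from carboxypeptidases and an inter-alpha-trypsin inhibitor heavy chain that is no digestive enzyme, while the 2 chymotrypsin loci summed to 1.35 FPKM or less in each library. Germ cell markers had 82.9, 74.3 and 104, with a major yolk protein locus (MSTRG.39015) highest at 57.2, 32.0 and 45.4 FPKM. The list is not specific, since 7 loci matched by the word DDX4, with 2.64, 9.23 and 22.1 summed FPKM, include DDX46, a splicing helicase of other cells too. Major yolk protein is a transferrin-like carrier made outside the gonad as well in sea urchins. A vasa-like locus (MSTRG.15860), a germ line helicase, had 9.98, 12.9 and 6.71. The 2 globin loci above 0 had 63.2, 15.2 and 20.7 summed FPKM, highest in CON_1. Most of that sum was MSTRG.950, with 62.0, 13.5 and 16.2 FPKM. The other, MSTRG.38993, had 1.20, 1.65 and 4.49 FPKM and was highest in CON_3. The part of these cell types in the differences between libraries was not tested.

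As whole profiles, the 3 libraries were alike but not tightly. Over the 53665 loci, Pearson's r of log2(FPKM + 1) was 0.79 between CON_1 and CON_2, 0.75 between CON_1 and CON_3 and 0.77 between CON_2 and CON_3. Spearman's rho was 0.63, 0.60 and 0.62 for the same pairs. These correlations are across genes, which are not independent replicates. On the FPKM scale, where the top genes decide the value, r was 0.88, 0.86 and 0.94. Of the loci at 1 FPKM or more in both libraries of a pair, 68.9% were within 2-fold for CON_1 and CON_2, 58.0% for CON_1 and CON_3, and 71.4% for CON_2 and CON_3. CON_1 and CON_3 were the least alike by every one of these measures.

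Which classes varied most between the libraries depended on the scaling. Among the 28 named classes, all with at least 10 loci of mean FPKM 1, the highest library was a median 1.57 times the lowest. It was 2 times or more in 3 classes and under 1.1 times in 5. Transposable element derived proteins varied by 3.22 times, with 0.0104%, 0.0335% and 0.0196%. A jockey-like reverse transcriptase locus (MSTRG.16130), the highest of the class, had 0.0334, 28.5 and 0.0674 FPKM, and was near 0 outside CON_2. Protease inhibitors varied by 2.21 times and mitochondrial ribosomal proteins by 2.16 times, at 0.0576%, 0.0614% and 0.124%. Myosins and other contractile proteins varied by 1.97 times and collagens by 1.90 times. The steadiest classes were fibrinogen-related proteins and carbohydrate and energy metabolism, both at 1.03 times, respiratory chain and ATP synthase genes at 1.06 and lectins at 1.09.

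A steady sum did not mean steady members. The spread of single loci, the SD of log2(FPKM + 1) over the 3 libraries, had a median of 0.64 over all 22781 loci of mean 1 or more. In fibrinogen-related proteins and lectins the median was 0.91 and 0.88, although their class shares were among the steadiest. In ribosomal proteins it was 0.42, in respiratory chain and ATP synthase genes 0.38 and in cathepsins and other lysosomal enzymes 0.44. The median SD depended on level, at 0.65 for means of 1 to 10 FPKM, 0.63 for 10 to 100 and 0.49 for 100 or more. In collagens, whose share varied by 1.90 times, the median member had an SD of 0.49, and without the 10 highest genes the class varied by 1.21 times. By number, 14 of the 23 with a mean of 1 or more were highest in CON_1, and 10 were at least 1.5 times higher in CON_1 than in CON_3, against 5 at least 1.5 times lower. Of all loci with such a mean, 17.3% were highest in CON_1. Those at least 1.5 times higher in CON_1 than in CON_3 were 20.3%, and those at least 1.5 times lower 57.0%, as deposited.

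Shares of a whole are tied to each other. Ribosomal proteins and collagens together held 26.8% of CON_1, 22.7% of CON_2 and 17.5% of CON_3, and in 22 of the 28 classes CON_1 had the lowest share. Median-ratio scaling, which sets the median ratio of the loci at 1 FPKM or more in all 3 libraries to the same value, divided CON_1 by 0.803, CON_2 by 1.05 and CON_3 by 1.20. After it, 16 of the 28 classes kept their highest library. CON_1 stayed highest for collagens, ribosomal proteins, iron storage and antioxidant proteins, and cathepsins and other lysosomal enzymes. CON_3 stayed highest for 7 classes, among them mitochondrial ribosomal proteins, myosins, chaperones, RNA-binding proteins and the complement class, and CON_2 for 5, among them protease inhibitors. The other 12 classes changed their highest library, actin and actin-binding proteins from CON_3 to CON_2, so the order of the libraries in them depends on the scaling. By this scaling collagens varied most, at 2.71 times, before transposable element derived proteins at 2.66, ribosomal proteins at 2.03, cathepsins and other lysosomal enzymes at 1.99 and protease inhibitors at 1.83, while myosins and other contractile proteins varied by 1.38 times. The steady energy classes became less steady, with carbohydrate and energy metabolism at 1.41 times, highest in CON_1.

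**Figure D4:**
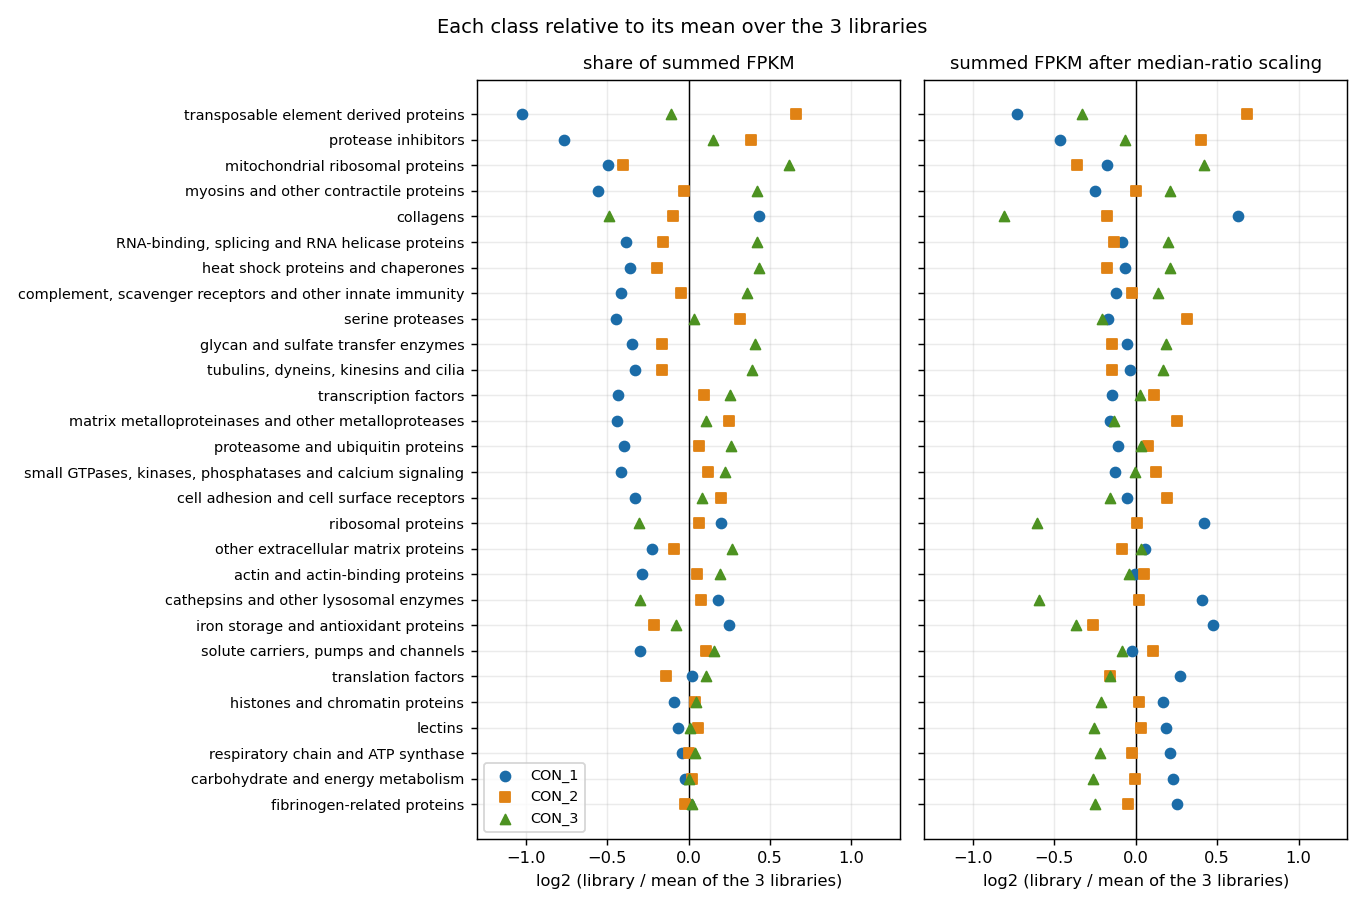
Log2 of each library over the mean of the 3 libraries for the 28 named classes, ordered by how much the share varied, as share of summed FPKM (left) and as summed FPKM after median-ratio scaling (right). Collagens and ribosomal proteins are highest in CON_1 and lowest in CON_3 in both panels. Protease inhibitors are lowest in CON_1 in both, and the actin class is spread on the left but not on the right.

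Ribosomal protein loci did not share 1 order of the libraries. Of the 91 loci of mean 1 or more, 37 were highest in CON_1, 38 in CON_2 and 16 in CON_3. From CON_1 down through CON_2 to CON_3 ran 33 of them (36.3%), beside 9.06% of all 22781 loci of such a mean. Over all those loci 17.3% were highest in CON_1, 32.0% in CON_2 and 50.7% in CON_3. Of the same 91 loci, 43 were at least 1.5 times higher in CON_1 than in CON_3 and 12 at least 1.5 times lower. Over all loci the balance was the other way, with 20.3% at least 1.5 times higher in CON_1 and 57.0% at least 1.5 times higher in CON_3. These counts are of FPKM as deposited, and the median-ratio factors were 0.803 for CON_1 and 1.20 for CON_3. The counts at a cut of 1.5 times therefore depend on the scaling. The highest library was a median 1.74 times the lowest for a ribosomal locus, and 6 loci differed by 4 times or more. Mitochondrial ribosomal proteins, which build the separate ribosome of mitochondria, had 56 of 69 loci highest in CON_3, and translation factors 74 of 90. As deposited too, 50.7% of all loci of mean 1 or more were highest there. After median-ratio scaling 39.9% of all loci were, and the members of these classes were not counted after it. As a summed class, translation factors were highest in CON_3 by share but in CON_1 after that scaling. The highest translation factor locus, an elongation factor 1-alpha locus (MSTRG.5614), was highest in CON_1, with 1153 FPKM in CON_1, 507 in CON_2 and 418 in CON_3.

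By KEGG pathway the 7 widest ratios were in pathways with a small share of the summed FPKM. Cell cycle had 0.00782%, 0.0122% and 0.0261% of the summed FPKM over 35 loci, a ratio of 3.34. Aminoacyl-tRNA biosynthesis, the enzymes that load amino acids onto tRNA, had 0.0428%, 0.0544% and 0.124% (2.89 times). Viral carcinogenesis followed at 2.54 times, Biosynthesis of unsaturated fatty acids at 2.38, DNA replication at 2.22, Drug metabolism - other enzymes at 2.19 and Ribosome biogenesis in eukaryotes at 2.18. All 7 were highest in CON_3, as were 79 of the 111 pathways. Beside this, 50.7% of all loci of mean 1 or more were highest in CON_3 as deposited, and 39.9% after median-ratio scaling. The steadiest by share was the citrate cycle, with 0.135%, 0.138% and 0.140%. The pathways were not rescaled by median ratio, so their ratios and highest library may depend on the scaling.

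The 10 loci of mean 100 FPKM or more that differed most, with every library at 1 or more, were mostly undescribed. Among all 383 loci of such a mean, 83 had neither a description nor a predicted gene, and 73 had a predicted gene but no description. MSTRG.5735 had 1287, 4.78 and 4.54 FPKM, MSTRG.21007 had 488, 272 and 3.43, and MSTRG.7116 had 40.2, 1897 and 296. The described ones were 40S ribosomal protein S9 (MSTRG.1406) and the delta subunit of the translocon-associated protein (MSTRG.33400), part of the complex that guides new proteins into the endoplasmic reticulum. A further locus, MSTRG.1546, was described only as a predicted protein.

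Both described loci had a partner of the same description with the opposite pattern. Translocon-associated protein subunit delta had 276, 144 and 3.35 FPKM at MSTRG.33400 and 13.6, 141 and 308 FPKM at MSTRG.441, and the 2 loci together had 290, 285 and 311. 40S ribosomal protein S9 had 133, 623 and 6.51 FPKM at MSTRG.1406 and 667, 245 and 661 at MSTRG.6704, together 800, 868 and 668. Ribosomal protein P2 had 911, 1741 and 79.7 FPKM at MSTRG.27333 and 825, 60.7 and 950 at MSTRG.7526. For the delta subunit the highest summed library was 1.09 times the lowest, against 82.4 times at MSTRG.33400 alone.

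This pattern was looked for in all descriptions after these pairs had been seen. In total, 137 descriptions had 2 or more loci of mean 10 FPKM or more. In 55 of them some locus differed by 4 times or more between libraries, and in 16 of those 55 the summed FPKM differed by less than 2 times. In the other 39 the sum differed as well, as for galactosylceramide sulfotransferase, with summed FPKM of 14.3, 1.29 and 96.5. The loci share a description, and how far they share sequence or reads was not tested. The values of single loci in such descriptions are uncertain.

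**Figure D5:**
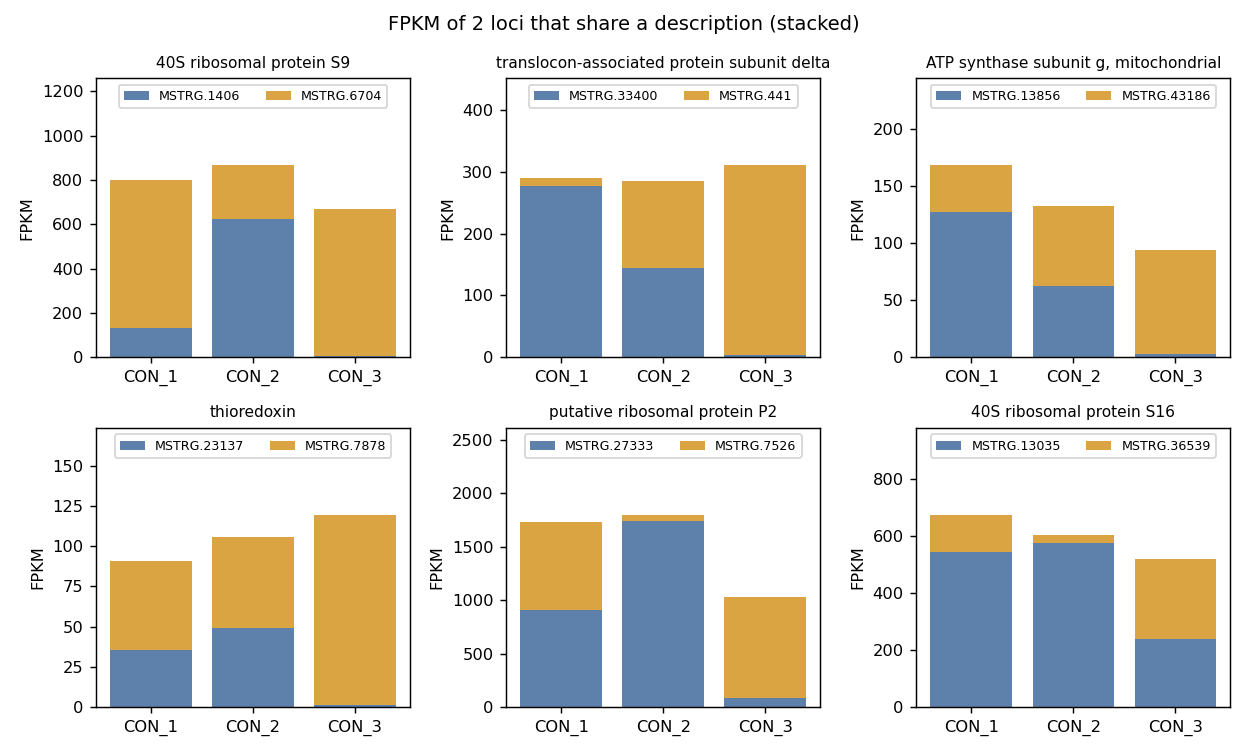
FPKM of pairs of loci that share a description, stacked by CON library, for the 6 descriptions with 2 loci that had the widest difference at 1 locus, among those with a locus differing by 4 times or more and whose sum differed by less than 2 times. The coloured parts of translocon-associated protein subunit delta trade places between CON_1 and CON_3, while the stacks stand at 290, 285 and 311 FPKM.

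Some loci were high in 1 library and near 0 in another. The examples were picked after their values had been seen. Of 5591 loci at 10 FPKM or more in some library, 473 (8.46%) were under 0.1 in another. Together they held 1.98%, 1.99% and 1.80% of the summed FPKM. Among loci with no description, 13.1% behaved so, and among described loci 1.20% (26 loci). None of the 91 ribosomal loci, 49 respiratory chain loci or 10 collagen loci at this level did, which is close to that 1.20%. Other named classes also had none, such as the 113 loci of small GTPases, kinases, phosphatases and calcium signaling. The described loci near 0 in a library included Lectin 1 of this species (MSTRG.19246), with 157, 0.0195 and 205 FPKM. Another was a macrophage mannose receptor 1 locus (MSTRG.27421), a lectin-domain receptor, with 145, 180 and 0.0506. MSTRG.27415, a locus of 3 predicted genes that shares AJAP11334 with the mannose receptor locus, was near 0 in the same library, with 141, 265 and 0.0707 FPKM. MSTRG.5767, the locus numbered next to MSTRG.5766, also shared its pattern, with 345, 315 and 0.0471 FPKM. MSTRG.5766 itself, at 0.463 FPKM in CON_3, was not under 0.1. Neighbours near 0 together were few. Of the 473, 18 (3.81%) had a near-0 locus of the next or previous number with the same lowest library. Of the 473, 162 shared a predicted gene with another locus (34.2%), against 27.3% of all 5591. Both shares count loci with no predicted gene, which cannot share one: 276 of the 473 and 1847 of the 5591.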

How the data were processed

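Total RNA of body wall was sequenced as paired-end reads on an Illumina HiSeq instrument. Per the study's methods, the authors aligned reads to the A. japonicus genome with HISAT and assembled and quantified transcripts with StringTie and Ballgown. The submitters' processing notes name HISAT2 2.0, StringTie 1.3.0 and Bowtie 0.12.2 with no role, and a genome build (mm8) that does not match that genome, so no coordinates are given. The deposited values are FPKM per locus, with no read counts, so depth and counting error at a locus are unknown. The paper gives the clean and mapped reads of each library. Among the CON libraries it lists the share of multimapped reads as highest in CON_1 and lowest in CON_3. Reads that map to several loci can be divided between them.

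The 3 CON columns were read by their labels. Described loci were placed in the first of 28 classes whose words matched, which took 7000 loci. The others were kept as other described, hypothetical or uncharacterized, or without description. Classes, markers and the rules for named genes were chosen with earlier results of these data known, and class words were corrected for false matches after the descriptions had been read. Named genes were the 20 of highest mean FPKM, the 3 highest of each class, the highest of each marker list, and the 10 of widest ratio at a mean of at least 100 FPKM; pairs sharing a description were added after values were seen. Genes were compared on FPKM or log2(FPKM + 1). Python 3.11.15 with pandas 2.3.3 and numpy 2.4.6 was used, and the calculations were tested on simulated data. Alternatives were other minimums, scalings, totals, pseudocounts and leaving out each library.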

Additional observations from a re-analysis of the deposited data

How the results depend on the processing

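With a minimum of 0.1 FPKM, 27888 loci passed in all 3 libraries, with 5 FPKM 3589, and with each library rescaled to the same sum, that of TPM, 20235, against 12009. Leaving out a library gave 13613 to 16439. The 10 highest genes held 15.5%, 14.3% to 17.0% without 1 library, and the 100 highest 40.5%. The share in loci with no annotation was 48.1%, and 46.6% without the 10 highest genes, and stood at 47.3% to 48.6% without 1 library. The named classes held 36.3% of the summed FPKM, 34.9% to 37.9% without 1 library, and 71.0% where described genes were the total. The median ratio of the highest to the lowest library over classes was 1.57, 1.34 after median-ratio scaling, and 1.18 to 1.44 between the pairs left without 1 library: 1.18 without CON_1, 1.21 without CON_3. With ribosomal proteins and collagens taken out of the total, an alternative chosen after seeing the data, it was 1.44. The lowest correlation between libraries was 0.75, 0.66 over loci of mean FPKM 1 or more, 0.67 with a pseudocount of 0.1 and 0.74 without the 100 highest genes. No paired analysis was possible because there was 1 group. Without the 10 highest genes the collagen share was 0.646% and that of iron storage and antioxidant proteins 0.603%.

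FPKM gives no read number, so a near-0 value cannot be told from a locus whose reads were placed elsewhere, and 3 libraries give a rough SD. Class membership rests on words in descriptions, which 48.1% of the summed FPKM lacks together with GO and KEGG.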

Other observations

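Loci with no description and no predicted gene of the reference still held 23.1%, 22.1% and 24.7% of the summed FPKM in CON_1, CON_2 and CON_3. The highest of them were MSTRG.2515, MSTRG.31180 with 3179, 1785 and 1652 FPKM, and MSTRG.23283 with 3851, 1059 and 1006 FPKM. MSTRG.19662, also without either, had 612, 1234 and 2798 FPKM, an order opposite to that of MSTRG.23283.

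Some loci near 0 in 2 libraries, picked after their values had been seen, shared a predicted gene with a steadier locus. The peptidyl-prolyl cis-trans isomerase gene AJAP27049 lay at MSTRG.13275 and at MSTRG.13276, which had 0, 0 and 144 FPKM. Fructose-bisphosphate aldolase (AJAP28079) lay at MSTRG.16249 with 127, 135 and 91.8 FPKM and at MSTRG.16250 with 0, 134 and 0.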
